A study of Homo sapiens with 22 samples.

Results

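The transcripts of 10 heat shock response chaperone genes were followed in BRIC-Seq libraries of HEK293T cells, a human embryonic kidney cell line. The genes were HSPA1A, HSPA1B, HSPA8, HSPH1, DNAJB1, BAG3, HSP90AA1, HSPB1, HSPD1 and HSPE1. They were listed by name, and each was read from 1 row of the count files, the protein-coding transcript with the highest mean count over the libraries of 0 to 10 h of chase. These are 10 of 19570 genes with a protein-coding row, and all 10 passed the filter on low values, a mean of at least 1 CPM, the count scaled to library size. The row of each gene was chosen by its mean count, and the list was drawn up with a higher level of HSPA1A and HSPA1B in ZNF598 knockdown cells at 0 h already known, so values at 0 h are given below as a description without a test.

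In BRIC-Seq, cells take up bromouridine (BrU) into new RNA, the BrU is washed out, and the labelled RNA that is left after a chase is pulled down and sequenced. Both groups received 150 µM BrU for 24 h, were washed, and then grew in BrU-free medium for a chase of 0, 2, 4, 6 and 10 h, or of 24 h. One group expressed a control hairpin (shControl) and the other expressed hairpins against ZNF598 (shZNF598). ZNF598 is a ubiquitin ligase that recognises collided ribosomes, and the comparison asked how its depletion alters the decay of mRNAs. There were 2 libraries per hairpin at each time from 0 to 10 h and 1 per hairpin at 24 h, 22 in all. The sources used here do not say whether the hairpin lines were clonal or whether replicates were separate cultures, so the p-values below measure only the spread between these libraries. Since whole cultures were sequenced, a change carried by some of the cells cannot be told apart from a smaller change in all of them.

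Chaperones bind unfolded or misfolded proteins and help them fold, hold them or pass them on for degradation. HSP70 proteins bind short hydrophobic stretches in cycles of ATP hydrolysis, in which J-domain proteins deliver the client and nucleotide exchange factors release it. HSP90 acts later on partly folded clients, small heat shock proteins hold clients without ATP, and the HSP60 and HSP10 pair folds proteins inside mitochondria. When misfolded proteins accumulate, the transcription factor HSF1 forms trimers, binds repeats of GAA and its complement TTC in promoters, and raises the transcription of many of these genes, whereas HSPA8 is known as the constitutive cytosolic HSP70.

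Short promoter stretches are shown first, since these repeats are what the genes are known to share. RefSeq promoter entries (250 bases before to 50 after the start, build GRCh38.p14) were matched by symbol for 10 of 10 genes. The nearest entry began at the start of the counted transcript for every gene except HSPH1, where it lay 484 bases away. The facing pair GAANNTTC was in 6.79% of 34943 promoters, the pair TTCNNGAA in 7.74%, either of them in 13.5%, and 3 alternating units at the same spacing in 0.489%. Each pair reads the same on both strands, and the 3-unit matches overlap the pairs. GAANNTTC was found in 7 of the 10 promoters, and 3 alternating units were found in those of HSPA8, HSP90AA1 and HSPD1. The 30-base stretches below hold 1 match per gene, 5′ to 3′ on the gene's strand, with the matched repeats in capitals:
HSPA1A, chr6:31815426-31815455, plus strand: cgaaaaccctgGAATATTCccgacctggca
HSPA1B, chr6:31827622-31827651, plus strand: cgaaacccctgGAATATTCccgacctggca
HSPA8, chr11:123062171-123062200, minus strand: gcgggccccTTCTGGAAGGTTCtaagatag
DNAJB1, chr19:14518426-14518455, minus strand: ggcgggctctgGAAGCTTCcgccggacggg
HSP90AA1, chr14:102087112-102087141, minus strand: ggagggttcTTCCGGAAGGTTCgggaggct
HSPB1, chr7:76302480-76302509, plus strand: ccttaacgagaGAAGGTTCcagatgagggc
HSPD1, chr2:197500061-197500090, minus strand: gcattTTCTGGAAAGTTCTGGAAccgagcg

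The capitals began 106 bases before the start in HSPA1A, 105 in HSPA1B, 55 in HSPA8, 47 in DNAJB1, 88 in HSP90AA1, 182 in HSPB1 and 245 in HSPD1. HSPA8 and DNAJB1 each held a second match farther from the start, at 230 and 77 bases, and HSP90AA1 held a second match nearer to it, at 68 bases. The stretches of HSPA1A and HSPA1B differed in 1 of 30 bases, and their promoters in 14 of 249 bases compared. Both also carried TATAAA on the gene's strand, which 7.35% of promoters did. HSPE1 and BAG3, and the HSPH1 entry, held no match to either pair in this window. A match is a description of the letters and no evidence of binding.

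HSPA1A (chromosome 6, 31815543 to 31817942, plus strand, a gene of 1 exon) and HSPA1B (31827738 to 31830254) start 12195 bases apart and encode the stress-inducible HSP70. They share most of their sequence, and 24.9% of the 50-base windows of HSPA1A and 28.4% of those of HSPA1B were found at 1 place in the genome. The raw count of HSPA1B was 1.225 to 1.285 times that of HSPA1A in all 22 libraries (median 1.252), so their values are read here as 1 measurement rather than 2. Counts and medians over the chaperones below still hold both genes. HSPD1 and HSPE1 lie head to head on chromosome 2 with starts 539 bases apart. Windows found at 1 place made up 56.3% for HSPD1, 61.5% for HSPE1, 76.6% for HSPA8, 78.3% for HSP90AA1, 82.2% for HSPB1, and 95.5% to 100% for DNAJB1, HSPH1 and BAG3. Reads were kept only where they aligned to 1 locus per the methods, but how reads of identical sequence were assigned is not clear from the sources used here. Levels of genes with many repeated windows can therefore be understated, if such reads were dropped, or overstated, if they were counted for both genes, whereas a ratio between libraries uses the same windows in both. If they were counted for both, such a ratio can still mix the genes that share those windows.

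Libraries of 0 to 10 h held 52352359 to 96963584 counts, and those at 24 h held 21220829 (shControl) and 40157613 (shZNF598). ZNF598 itself lay at 0.41 to 1.05 CPM in the 10 shZNF598 libraries of 0 to 10 h and at 3.97 to 8.37 CPM in the 10 shControl libraries, with no overlap. Its log2 difference (shZNF598 minus shControl) over 2 to 10 h was -3.05 (SE 0.092, edgeR, adjusted p = 4.34e-20), and at 24 h it was at 4.975 CPM in shControl and 2.45 CPM in shZNF598. VIM, KRT8, KRT18 and INA, which HEK293T cells are known to express, were at 1 CPM or more in all 20 libraries, NEFM in 15 and PAX2 in 0. The shControl pair at 0 h differed more than any other pair (r of log2 CPM 0.977, against 0.989 to 0.996). Levels below are CPM scaled by TMM, which sets libraries to an equal level for the bulk of transcripts, so "higher" and "lower" during the chase are relative to that bulk and give no half-life.

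Per kilobase of transcript, the shControl libraries at 0 h spanned from 1.43 CPM per kb ± 0.362 (SD, n = 2) for BAG3 to 206 ± 13.0 for HSPA8. HSPD1 (94.7 ± 2.67) and HSP90AA1 (89.5 ± 22.7) came next and did not differ beyond their spread. HSPA1B (52.1 ± 8.52) and HSPA1A (44.3 ± 7.51) followed, also within their spread, and then HSPE1 (30.9 ± 1.58), DNAJB1 (12.1 ± 1.49), HSPH1 (6.59 ± 1.87) and HSPB1 (3.96 ± 0.029). In shZNF598 HSPA8 (238 ± 4.53) was again the highest and BAG3 (1.22 ± 0.16) the lowest, and HSPA1B (105 ± 8.07) lay within the spread of HSPD1 (106 ± 0.424) and HSP90AA1 (114 ± 13.4), with HSPA1A (88.6 ± 6.94) below both. The constitutive HSP70, the mitochondrial HSP60 and the inducible HSP90 had the 3 highest levels per length in control cells, an order that uses full transcript length and takes no account of the share of windows found at 1 place.

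**Figure D1:**
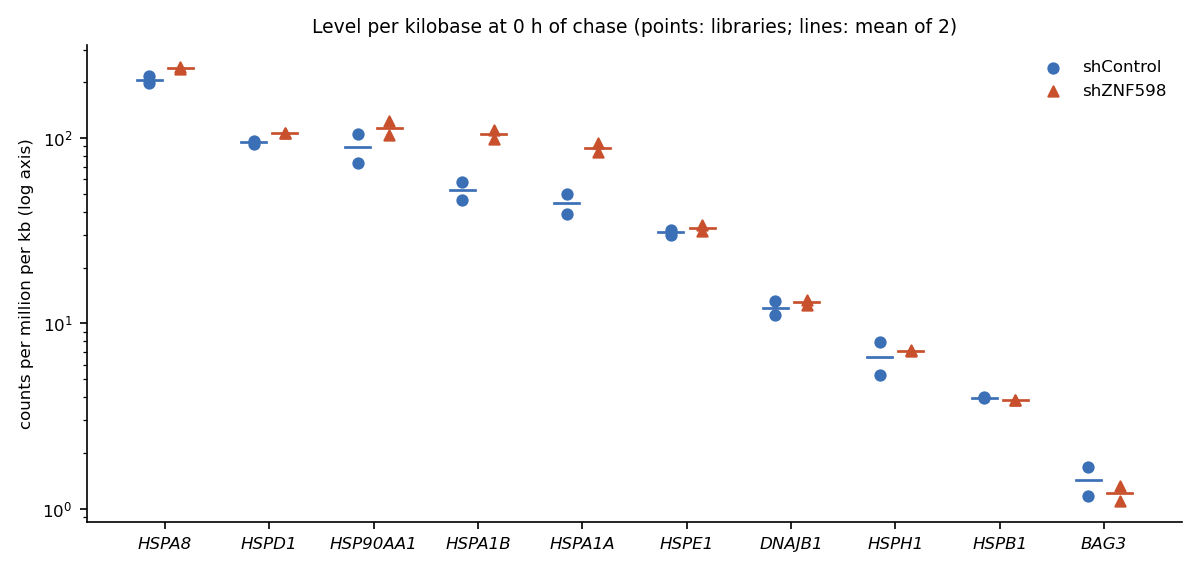
Level of the 10 chaperone transcripts at 0 h of chase in CPM per kilobase on a log axis, with genes ordered by the shControl mean, circles and triangles for single shControl and shZNF598 libraries and lines for the mean of 2. HSPA1B and HSPA1A stand apart between the hairpins, at 52.1 and 44.3 CPM per kb in shControl against 105 and 88.6 in shZNF598, whereas the points of most other genes lie close together.

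The inducible HSP70 transcripts were higher in shZNF598 early in the chase, fell in both groups until 6 h, and were higher again at 10 h. At 0 h HSPA1A was at 93.7 and 119 CPM in the shControl libraries and at 224 and 201 CPM in the shZNF598 libraries. At 2 h it was at 79.05 and 75.1 CPM in shControl and at 148 and 130.4 CPM in shZNF598. Both shZNF598 libraries lay above both shControl libraries at these times, by a ratio of means of 2.00 at 0 h (not tested) and of 1.80 at 2 h. The log2 difference at 0 h was 0.998, and 0.835 or 1.18 with 1 or the other shControl library left out. The gap had narrowed at 4 h, with 62.5 and 60.65 CPM against 69.0 and 78.7 CPM. At 6 h the shControl libraries were at 52.8 and 53.1 CPM and the shZNF598 libraries at 54.5 and 63.8 CPM, still without overlap but 1.12-fold apart. At 10 h the groups overlapped, at 149 and 127 CPM in shControl and 139 and 228 CPM in shZNF598. The single libraries at 24 h held 194 CPM (shControl) and 326 CPM (shZNF598), the highest value of each group.

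Among the levels of all transcripts at 2 h, 1.17% differed between the hairpins, and 3 of the 10 chaperones did, all of them higher in shZNF598. This count holds both HSPA1A and HSPA1B, which are read as a single measurement. Their higher level at 0 h was known when the list was drawn up. The log2 difference (shZNF598 minus shControl) was 0.85 for HSPA1A (SE 0.143, 95% interval 0.571 to 1.13, edgeR, adjusted p = 9.35e-04) and 0.86 for HSPA1B (SE 0.140, edgeR, adjusted p = 6.99e-04). It was 0.66 for HSP90AA1 (SE 0.153, edgeR, adjusted p = 0.0243). Leaving out any 1 of the 16 libraries kept the calls of HSPA1A and HSPA1B, with differences of 0.76 to 0.94. At 4 h no chaperone passed (edgeR, 0 of 10, 2 at an unadjusted p below 0.05, against 1.94% of all transcripts called), and HSPA1A was 0.26 higher (95% interval -0.017 to 0.542). At 6 h its difference was 0.16 (-0.122 to 0.44) and at 10 h 0.41 (0.13 to 0.686, edgeR, adjusted p = 0.102). The value at 10 h rested on 1 library: it was 0.0088 without shZNF598 10 h replicate 2 and 0.72, past the threshold (edgeR, adjusted p = 6.29e-04), without shZNF598 10 h replicate 1. Whether the difference shrank from 2 to 6 h was tested after the values had been seen. The change was -0.69 (SE 0.202) for HSPA1A and did not pass over all transcripts (edgeR, adjusted p = 0.614). In that test 0.0528% of all transcripts and 0 of 10 chaperones were called by edgeR, although 4 chaperones had an unadjusted p below 0.05.

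**Figure D2:**
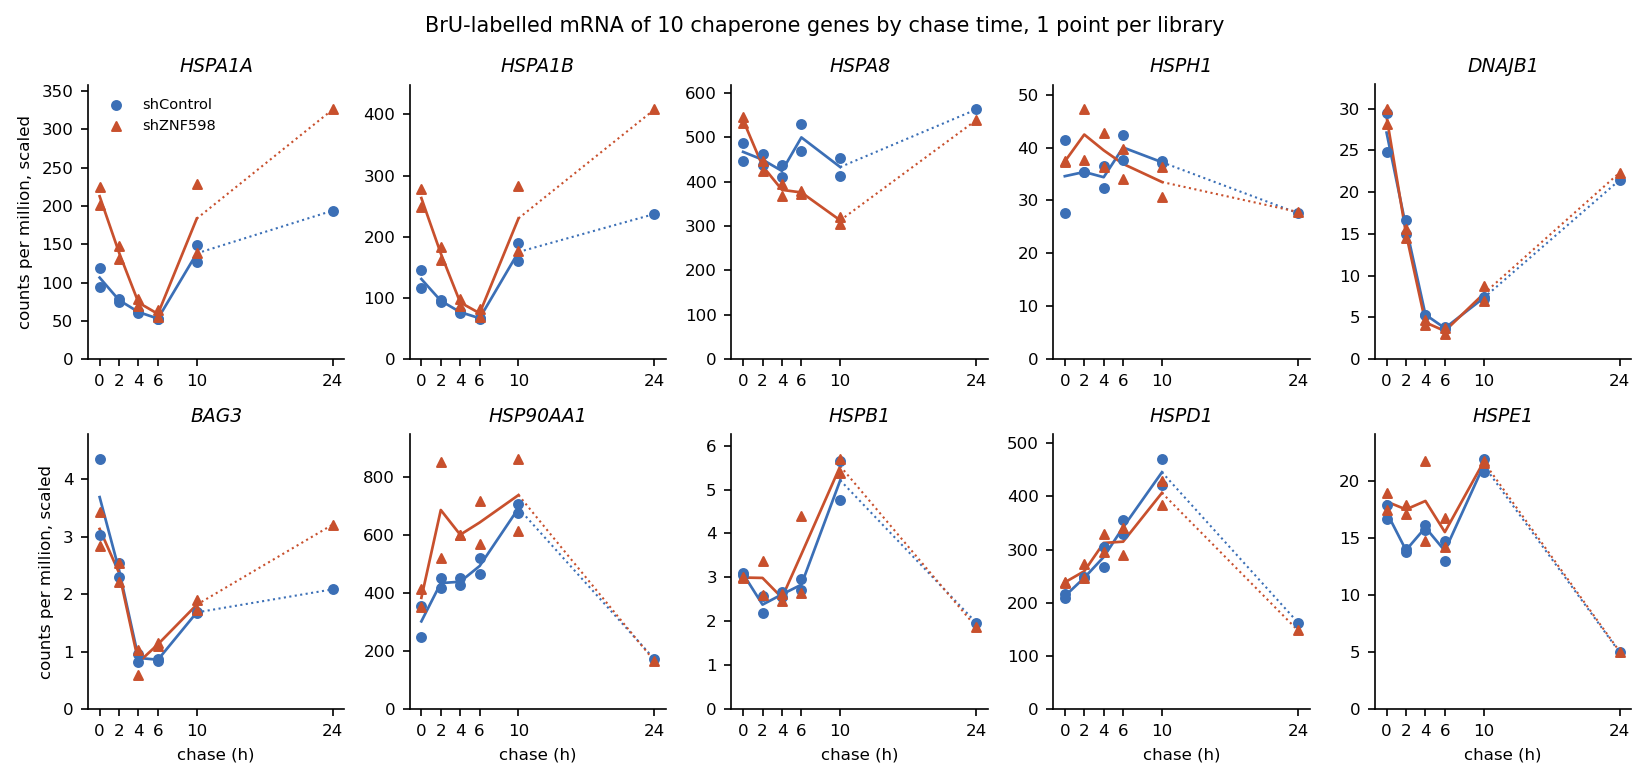
Scaled CPM of each chaperone transcript (linear axes starting at 0) against hours of chase, 1 point per library, with lines through the means of 2 libraries to 10 h and dotted lines to the single libraries at 24 h. HSPA1A and HSPA1B show shZNF598 above shControl at 0 and 2 h and a low point at 6 h in both groups, DNAJB1 and BAG3 show the steep early fall, and HSP90AA1, HSPB1, HSPD1 and HSPE1 are high at 10 h and low at 24 h.

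Averaged over 2, 4, 6 and 10 h, 21.8% of all 79513 tested transcripts differed between the hairpins, and 4 of the 10 chaperones did. This count again holds both genes of the HSPA1 pair, which are read as a single measurement. HSPA1A (0.42, SE 0.071, edgeR, adjusted p = 9.18e-05), HSPA1B (0.42, SE 0.070, edgeR, adjusted p = 6.71e-05) and HSP90AA1 (0.40, SE 0.076, edgeR, adjusted p = 4.36e-04) were higher in shZNF598. HSPA8 was lower (-0.27, SE 0.047, edgeR, adjusted p = 1.41e-04). The other 6 ranged from -0.10 for DNAJB1 to 0.18 for HSPE1, which missed the threshold (SE 0.065, edgeR, adjusted p = 0.0509). Of the 6 tested rows of HSPE1, 2 were called higher, with differences of 0.11 to 0.23 over the 6. With 1 library left out, the difference was 0.10 to 0.24 for HSPE1 and 0.069 to 0.25 for HSPB1. The median over the 10 was 0.13, beside 0.019 over all tested transcripts. These 4 calls held when any 1 of the 16 libraries was left out and under every other setting tried.

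HSPA8 was lower in shZNF598 over 2 to 10 h, where HSPA1A, its inducible relative, was higher. The log2 difference fell from 0 to 6 h in both genes. It went from 0.206 to -0.411 for HSPA8 and from 0.998 to 0.159 for HSPA1A. At 0 h HSPA8 was at 446 and 488 CPM in shControl and at 531 and 546 CPM in shZNF598. Both shZNF598 libraries were higher then, and the order had turned by 4 h. At 6 h it was at 468 and 531 CPM in shControl and at 379 and 372 CPM in shZNF598. At 10 h it was at 412 and 453 CPM in shControl and at 306 and 319.8 CPM in shZNF598, so that at both times every shZNF598 library lay below every shControl library. At 24 h the single libraries were at 562 and 538 CPM. HSPA8 was the 1 chaperone called at 6 h, among 3.0% of all transcripts (log2 difference -0.41, SE 0.095, edgeR, adjusted p = 0.0114). It was also the 1 called at 10 h, among 4.09% (-0.47, SE 0.095, edgeR, adjusted p = 0.00305). Without shControl 6 h replicate 2 the difference at 6 h was -0.32 (edgeR, adjusted p = 0.24), without shZNF598 6 h replicate 2 it was -0.40 (edgeR, adjusted p = 0.0575), and without shControl 10 h replicate 2 the difference at 10 h was -0.40 (edgeR, adjusted p = 0.0951). All 24 tested rows of HSPA8 were lower over 2 to 10 h, with log2 differences of -0.30 to -0.25, and these rows overlap and share reads.

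HSP90AA1 encodes the inducible cytosolic HSP90. Its levels rose relative to the bulk in control cells from 248 and 357 CPM at 0 h to 676 and 709 CPM at 10 h. In shZNF598 it was at 416 and 352 CPM at 0 h, overlapping with shControl. At 2 h the shControl libraries held 418 and 451 CPM and the shZNF598 libraries held 520.3 and 853 CPM. At 4 h the values were 450.3 and 428 CPM in shControl against 600.5 and 602 CPM in shZNF598, and at 6 h 519 and 468 CPM against 717 and 569.7 CPM. Groups did not overlap at 2, 4 and 6 h, with shZNF598 higher, and overlapped again at 10 h, where shZNF598 held 861 and 615 CPM. The call at 2 h was lost without shZNF598 2 h replicate 2 (difference 0.26, edgeR, adjusted p = 0.72), without shControl 2 h replicate 1 (0.61, edgeR, adjusted p = 0.295) and without shControl 2 h replicate 2 (0.71, edgeR, adjusted p = 0.172). All 9 tested HSP90AA1 rows were higher in shZNF598 over 2 to 10 h, by 0.36 to 0.40.

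**Figure D3:**
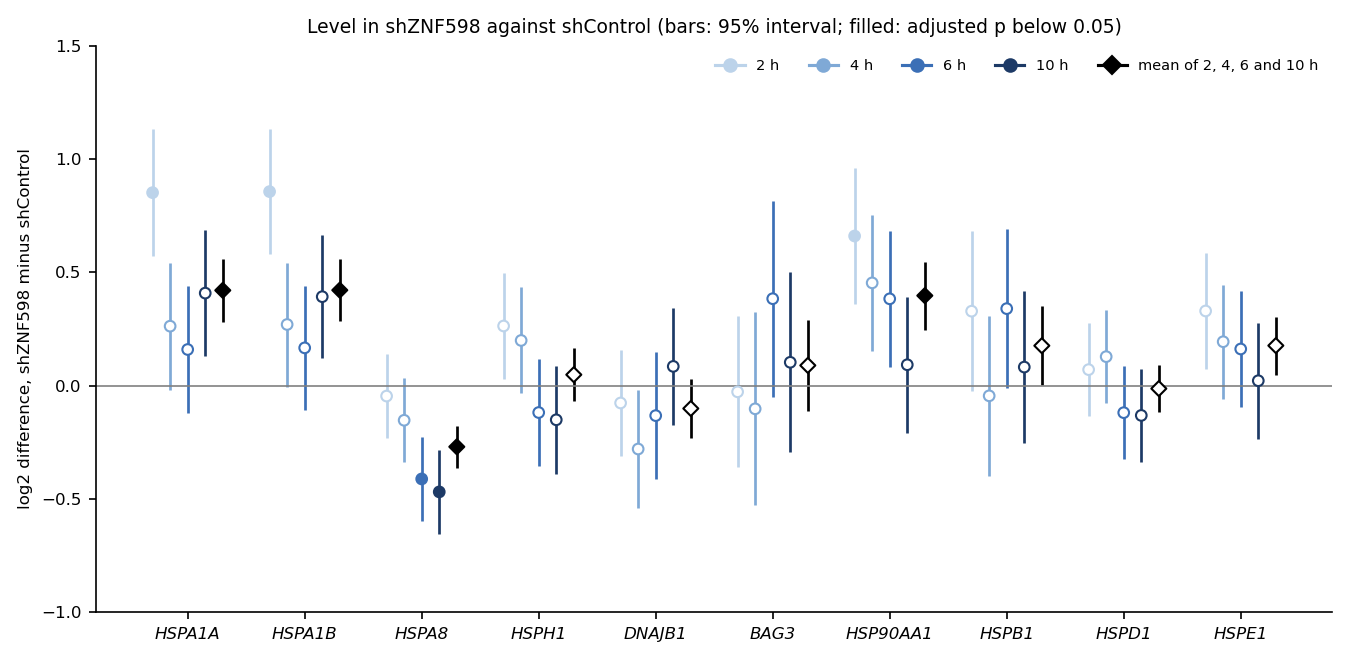
Log2 difference of the scaled level, shZNF598 minus shControl, for each chaperone at 2, 4, 6 and 10 h (circles, light to dark) and for the mean of these times (diamonds), with 95% intervals and filled symbols where the adjusted p was below 0.05. Filled symbols above 0 belong to HSPA1A, HSPA1B and HSP90AA1 at 2 h and over all times, and filled symbols below 0 to HSPA8 at 6 h, at 10 h and over all times.

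DNAJB1 and BAG3, both co-chaperones of HSP70, fell steeply relative to the bulk until 4 to 6 h in both groups. DNAJB1 is a J-domain protein that delivers clients to HSP70. Its level fell from 24.8 and 29.5 CPM in shControl and 29.9 and 28.2 CPM in shZNF598 at 0 h to 3.83 and 3.61 CPM and 2.97 and 3.79 CPM at 6 h. The means at 6 h were 7.29-fold (shControl) and 8.59-fold (shZNF598) below those at 0 h. At 10 h it was back at 7.42 and 7.26 CPM in shControl and 6.95 and 8.72 CPM in shZNF598, and at 24 h at 21.5 and 22.3 CPM. The groups overlapped at every time from 0 to 10 h except 4 h, where shZNF598 (4.15 and 4.67 CPM) lay below shControl (5.34 and 5.34 CPM) without passing the test (-0.28, 95% interval -0.538 to -0.02, edgeR, adjusted p = 0.34). Over 2 to 10 h its interval was -0.23 to 0.028.

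BAG3 is a nucleotide exchange factor of HSP70 that links it to small heat shock proteins and to autophagy. It had the lowest mean raw count of the members (126, against 212 for HSPB1), with 36 to 312 raw counts per library, so its values carry more counting error. BAG3 fell from 4.34 and 3.03 CPM in shControl and 3.42 and 2.84 CPM in shZNF598 at 0 h to 0.965 and 0.814 CPM and 1.03 and 0.599 CPM at 4 h. The shControl mean at 4 h was 4.14-fold below that at 0 h and the shZNF598 mean 3.86-fold. At 6 h it was at 0.879 and 0.838 CPM in shControl and 1.16 and 1.095 CPM in shZNF598, and at 10 h at 1.68 and 1.69 CPM and 1.73 and 1.905 CPM. shZNF598 was higher in both libraries at 6 h and 10 h, by differences of 0.38 (95% interval -0.048 to 0.815) and 0.10 (-0.293 to 0.499), neither of which passed the test.

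From 2 to 6 h, the levels of 66.8% of all transcripts changed relative to the bulk in shControl and 64.4% in shZNF598, and 5 of the 10 chaperones changed in each group. These windows were chosen after the time courses had been seen. DNAJB1 fell by 2.09 on the log2 scale in shControl (SE 0.133, edgeR, adjusted p = 2.09e-12) and by 2.14 in shZNF598 (SE 0.132, edgeR, adjusted p = 1.36e-12). BAG3 fell by 1.49 (SE 0.201) and by 1.08 (SE 0.187). HSPA1A fell by 0.54 in shControl (SE 0.143, edgeR, adjusted p = 0.00168) and by 1.23 in shZNF598 (SE 0.144, edgeR, adjusted p = 4.16e-08), and HSPA1B by 0.51 and 1.20. HSPD1, the mitochondrial HSP60, rose by 0.47 (SE 0.105) and by 0.28 (SE 0.105), and the second call was lost without shZNF598 2 h replicate 1 (0.21, edgeR, adjusted p = 0.158) and without shZNF598 6 h replicate 1 (0.16, edgeR, adjusted p = 0.242). HSP90AA1, HSPB1, HSPE1, HSPH1 and HSPA8 did not pass in either group, with changes of -0.21 to 0.26.

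From 6 to 10 h, 49.0% of all transcripts changed in shControl and 45.2% in shZNF598, and 8 of the 10 chaperones changed in each. All 8 rose in shControl, and 7 rose and HSPA8 fell in shZNF598. The HSPA1 pair rose most, with HSPA1A up by 1.38 in shControl (SE 0.145, edgeR, adjusted p = 2.16e-08) and 1.63 in shZNF598 (SE 0.146, edgeR, adjusted p = 1.47e-08). DNAJB1 rose by 0.98 (SE 0.138) and 1.19 (SE 0.137) and BAG3 by 0.96 (SE 0.218) and 0.68 (SE 0.203). The small heat shock protein HSPB1 rose by 0.89 (SE 0.179) and 0.63 (SE 0.172), HSPE1 by 0.62 (SE 0.132) and 0.48 (SE 0.130), and HSPD1 by 0.38 (SE 0.105) and 0.37 (SE 0.105). Without shZNF598 6 h replicate 1, HSPB1 (0.33), HSPE1 (0.37) and HSPA8 (-0.25) missed the threshold in shZNF598. The rise of HSPD1 missed it in shControl without shControl 6 h replicate 2 or 10 h replicate 2 (edgeR, adjusted p = 0.0539 and 0.0585), and in shZNF598 without shZNF598 6 h replicate 2 or 10 h replicate 1 (edgeR, adjusted p = 0.0811 and 0.0655). HSP90AA1 rose by 0.49 in shControl (SE 0.153, edgeR, adjusted p = 0.00955), a call that was lost without shControl 6 h replicate 2 (edgeR, adjusted p = 0.0965) or 10 h replicate 2 (edgeR, adjusted p = 0.0624). Its change of 0.20 in shZNF598 did not pass (SE 0.153, edgeR, adjusted p = 0.303); the difference between these changes was not tested. HSPA8 fell by 0.26 in shZNF598 (SE 0.095, edgeR, adjusted p = 0.0241), a call that was lost without shZNF598 6 h replicate 1 (-0.25, edgeR, adjusted p = 0.0724) and without shZNF598 10 h replicate 1 (-0.23, edgeR, adjusted p = 0.117). The median over all transcripts was 0.03 in shControl and 0.02 in shZNF598, and with RLE size factors in place of TMM 0.132 and 0.095. The split of all calls moved with it, from 21736 higher and 17265 lower to 26663 and 13196 in shControl, and from 19566 and 16369 to 23239 and 12888 in shZNF598.

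**Figure D4:**
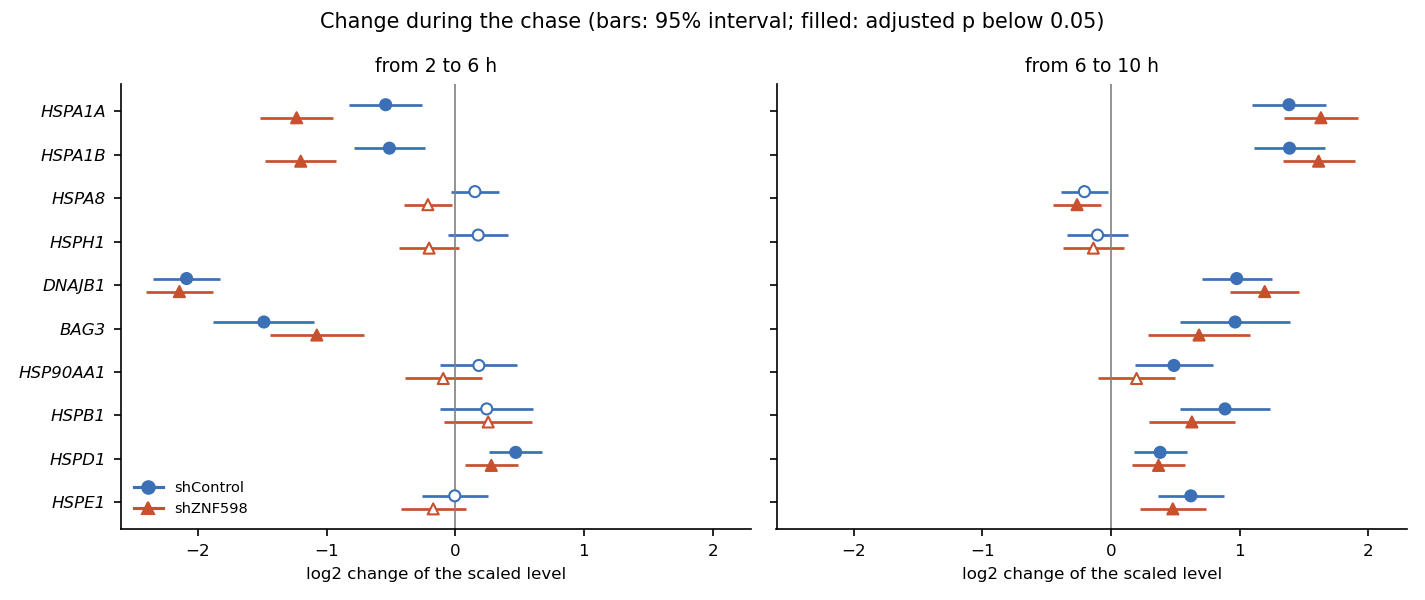
Log2 change of the scaled level from 2 to 6 h (left) and from 6 to 10 h (right) in shControl (circles) and shZNF598 (triangles), with 95% intervals and filled symbols where the adjusted p was below 0.05. DNAJB1, BAG3, HSPA1A and HSPA1B fell in the first window and rose in the second in both groups, and the intervals of HSPA1A from 2 to 6 h, -0.822 to -0.26 and -1.515 to -0.951, lie apart. These intervals are not adjusted, and the windows were chosen after the values had been seen. The direct test of that difference did not pass (-0.69, edgeR, adjusted p = 0.614).

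HSPD1 and HSPE1 encode the 2 parts of the mitochondrial chaperonin, HSP60 and its lid HSP10. HSPD1 rose from 217 and 208 CPM in shControl and 239 and 238 CPM in shZNF598 at 0 h to 421 and 469.8 CPM and 429 and 385 CPM at 10 h. Both shZNF598 libraries lay above both shControl libraries at 0 h, and the groups overlapped from 2 to 10 h. At 24 h it was at 163 and 148 CPM, below every earlier library of its group. HSPE1 stayed between 13.0 and 21.9 CPM in shControl and between 14.3 and 21.8 CPM in shZNF598 from 0 to 10 h and was at 4.975 and 5.05 CPM at 24 h. At 2 h the shZNF598 libraries (17.1 and 17.9 CPM) lay above those of shControl (14.1 and 13.8 CPM), a difference of 0.33 that did not pass (SE 0.13, edgeR, adjusted p = 0.26). The 24 h values of HSPE1 rest on few reads, the fewest being 86 in the shControl library.

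HSPB1, a small heat shock protein that holds unfolded clients, was rare in these cells, at 2.18 to 5.66 CPM in shControl and 2.45 to 5.69 CPM in shZNF598 from 0 to 10 h. It was high at 10 h in both groups, at 5.66 and 4.76 CPM and at 5.38 and 5.69 CPM. The 24 h values of HSPB1 rest on few reads, 34 in shControl and 64 in shZNF598. HSPH1, an HSP110 protein that exchanges the nucleotide of HSP70, stayed between 27.7 and 42.4 CPM in shControl and between 30.6 and 47.2 CPM in shZNF598 over 0 to 10 h. Its difference went from 0.26 at 2 h (SE 0.119) to -0.15 at 10 h (SE 0.121), and no single time passed.

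A straight line through 2, 4, 6 and 10 h gave a slope per hour relative to the bulk, which 69.2% of all transcripts had apart from 0 in shControl and 65.6% in shZNF598. In shControl, 4 of 10 chaperones passed, all with positive slopes, and in shZNF598 4 passed, 2 in each direction. HSPB1 rose by 0.14 log2 units per hour in shControl (SE 0.027, edgeR, adjusted p = 1.60e-04) and 0.13 in shZNF598 (SE 0.027, edgeR, adjusted p = 5.95e-04), and HSPD1 by 0.11 (SE 0.012) and 0.076 (SE 0.012). HSP90AA1 (0.088, SE 0.022) and HSPE1 (0.071, SE 0.022) passed in shControl, where their slopes in shZNF598 were 0.020 and 0.035 and did not; without shZNF598 2 h replicate 2 that of HSP90AA1 was 0.057 and passed (edgeR, adjusted p = 0.0119). HSPA8 fell by 0.056 per hour in shZNF598 (SE 0.012, edgeR, adjusted p = 6.36e-04) and HSPH1 by 0.042 (SE 0.016, edgeR, adjusted p = 0.0249), where their slopes in shControl were -0.0011 and 0.014 and did not pass. The call of HSPH1 was lost without shZNF598 2 h replicate 2 (edgeR, adjusted p = 0.145) and without shZNF598 10 h replicate 2 (edgeR, adjusted p = 0.164), and that of HSPE1 without shControl 10 h replicate 1 (edgeR, adjusted p = 0.0671). A line describes DNAJB1, BAG3 and the HSPA1 pair poorly, since they fell and then rose, and their slopes changed sign with the window. HSPB1 rose late, at 2.38, 2.61, 2.83 and 5.21 CPM in shControl at 2, 4, 6 and 10 h. Over 2 to 6 h its slopes did not pass in shControl or shZNF598 (edgeR, adjusted p = 0.315 and 0.258). Nor did HSP90AA1 and HSPE1 in shControl (edgeR, adjusted p = 0.288 and 0.995). In shZNF598, HSPA8 and HSPH1 did not pass there (edgeR, adjusted p = 0.0559 and 0.142). HSPD1 kept its calls.

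The slopes themselves did not differ between the hairpins for any chaperone (edgeR, 0 of 10 called, 3 at an unadjusted p below 0.05, among 0.0667% of all transcripts called and 0 of 10 by DESeq2). The largest differences were -0.068 for HSP90AA1 (95% interval -0.129 to -0.008), -0.056 for HSPH1 (-0.1 to -0.013) and -0.055 for HSPA8 (-0.089 to -0.021, edgeR, adjusted p = 0.597). That of HSPA1A was -0.046 (-0.197 to 0.106). In data simulated along measured time courses, with the same spread for all transcripts, 72% of slope differences of 0.3 per hour and 2% of those of 0.15 were recovered. The trend of the group means recovered 94% and 44%. Differences as small as those seen here were not simulated. The SE of the slope difference also varied, from 0.017 for HSPA8 to 0.105 for DNAJB1, so these shares need not hold for each chaperone. With 0 h included, as a description, slopes were -0.20 per hour for DNAJB1 in both groups, -0.13 and -0.091 for BAG3, 0.038 and -0.0235 for HSPA1A, and -0.0043 and -0.073 for HSPA8 in shControl and shZNF598.

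Among the genes of the same pathway, 108 were listed in 9 groups, and 88 passed the filter. Over 2 to 10 h, 12 of the 88 were higher in shZNF598 and 11 were lower, with a median of 0.032, beside 21.8% of all transcripts called (9333 higher and 7985 lower, median 0.019), and none differed in slope (edgeR, 0 of 88). Of the other cytosolic HSP70 and HSP110 genes, 2 of 7 tested were higher and 1 was lower. HSPA1L, which starts 260 bases from HSPA1A on the opposite strand, was higher by 0.41 (SE 0.104, edgeR, adjusted p = 0.00558) and HSPA2 by 0.32 (SE 0.116, edgeR, adjusted p = 0.0495), and HSPA12A was lower (-0.31, SE 0.073). Of the 50-base windows of HSPA1L, 2.29% were found at more than 1 place. The J-domain co-chaperones were higher in 4 of 18, among them DNAJB6 (0.26, SE 0.048) and DNAJB14 (0.31, SE 0.084). They were lower in 2, DNAJC5, a synaptic vesicle J-domain protein (-0.55, SE 0.056), and DNAJA1 (-0.22, SE 0.056). Of 10 nucleotide exchange factors and regulators, BAG1 was higher (0.26, SE 0.064) and BAG6, which guards exposed membrane segments, was lower (-0.44, SE 0.058).

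HSP90 with its co-chaperones had no higher and 2 lower genes of 16, CHORDC1 (-0.58, SE 0.068) and its partner SUGT1 (-0.29, SE 0.058). Organelle chaperones had 1 higher and 2 lower genes of 16, with CALR, the calcium-binding chaperone of the endoplasmic reticulum, at -0.23 (SE 0.050). Prefoldin, which hands nascent actin and tubulin to the cytosolic chaperonin, had PFDN5 higher (0.27, SE 0.063) and PFDN1 lower (-0.47, SE 0.060) of 6. Of 6 tested heat shock factors and regulators, EEF1A1 was higher (0.15, SE 0.048) and IER5 was lower (-0.25, SE 0.082). Among 22 tested genes known to be induced by HSF1, 5 were higher and 4 were lower, a split that was not tested against that of all transcripts. The higher ones included ZFAND2A (0.42, SE 0.086) and PPP1R15A (0.33, SE 0.083), and the lower ones CHORDC1, RGS2 (-0.47, SE 0.154), IER5 and DNAJA1. None of the 9 other small heat shock protein genes passed the filter.

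The course of the HSPA1 pair was compared with 10723 other genes by Pearson's r of log2 CPM over the 20 libraries of 0 to 10 h, which share hairpins and times, so r is a description. HSPA1L came first (r = 0.965), followed by NOP56 (0.941), a core protein of box C/D small nucleolar ribonucleoproteins, AMOTL2 (0.899), COA5 (0.895) and PKD2 (0.894). Of the HSPA1L windows, 97.7% were found at 1 place and 2.29% at more. Its level was low beside that of HSPA1A, at 2.68 against 106 CPM in shControl at 0 h. Its promoter match lay on the same bases as that of HSPA1A. Whether shared reads add to its course was not tested. In shControl, HSPA1L went from 2.68 CPM at 0 h to 1.59 CPM at 4 h, 4.70 CPM at 10 h and 9.95 CPM at 24 h, and in shZNF598 from 6.22 to 2.20, 6.06 and 12.5 CPM. NOP56 went from 33.9 CPM at 0 h to 26.4 CPM at 6 h and 34.5 CPM at 10 h in shControl. The other chaperones ranked lower, from HSPE1 (0.704) and DNAJB1 and BAG3 (both 0.656) to HSPA8 (0.013) and HSPH1 (-0.164).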

How the data were processed

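BRIC-Seq libraries of HEK293T cells with shControl or shZNF598 hairpins were used, 22 in all, and groups and replicate numbers came from the sample labels. Total RNA was mixed with BrU spike-ins, pulled down with an anti-BrdU antibody, depleted of rRNA and sequenced as stranded, single-end 50-base reads. Per the labels and methods, the authors trimmed reads with fastp, aligned them with STAR 2.7.0a (CASAVA 1.8 upstream) to hg38 with GENCODE 32, allowing 1 mismatch and 1 locus per read, and counted reads per transcript. The deposited values are raw counts per transcript. Reads of overlapping isoforms and paralogs cannot be fully separated, and spike-in counts were not used here.

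Identifiers were named with GENCODE 44 (92.2% of 227264 matched with their version and 98.4% without it). Counts were analysed with edgeR 4.0.16 in R 4.3.3. The filter kept 79513 transcripts whose CPM averaged 1 or more in the 20 libraries of 0 to 10 h. These were scaled by TMM and fitted with 1 mean per group or with hairpin, hours and their product over the 16 libraries of 2 to 10 h. Tests were quasi-likelihood tests, two-sided, with Benjamini-Hochberg adjustment over all 79513 transcripts and a threshold of 0.05, and standard errors came from dividing a log2 change by the root of its F statistic. Libraries of 0 h entered no main test and were fitted only in the alternative with all 20 libraries, and those of 24 h, with no replicate, only in 1 alternative window. Simulated shifts of 1 log2 unit in the mean level over 2 to 10 h were found for 100% of the shifted transcripts (9 of 208 calls were false). All transcripts had the same spread there. Smaller level differences, such as the -0.27 of HSPA8 and the 0.42 of HSPA1A, were not simulated.

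The genes and pathway lists were chosen with earlier results of these data known, so no p-value is adjusted over a list alone. Named genes were the 10 members, the pathway genes past the threshold and the 5 genes with the most similar course to the HSPA1 pair. Alternatives were DESeq2 1.42.0, RLE size factors, no filter, 1 row per gene, other rows and windows, a replicate block and leaving out each library. Changes from 2 to 6 h and from 6 to 10 h, their contrast between hairpins and the linear trend of the group means were added after the data had been seen. The r between deviations of same-numbered libraries ranged from -0.198 to 0.325 over 5 times. It was positive at 2, 4 and 6 h, near 0 at 0 h and negative at 10 h. The labels tie the numbers to nothing shared, so numbers were not taken as pairs.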

Additional observations from a re-analysis of the deposited data

How the results depend on the processing

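In all, 3473 alternative values were computed, of which 3235 kept their direction and side of the threshold or stayed within 1.5 times a count. The cause of the other moves was not tested, apart from the fewer libraries or transcripts that an alternative holds by construction.

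With no filter on low values, the chaperones called numbered 1 at 4 h, 2 at 6 h, 3 at 10 h and 2 for the contrast of 6 h with 2 h. Of all transcripts, 2361, 2957, 3776 and 159 were called there. That fit also held transcripts below the filter, so these counts are not shares of the 79513. HSPE1 passed over 2 to 10 h with no filter (edgeR, adjusted p = 0.0333). The call of HSP90AA1 at 2 h was lost with DESeq2 (adjusted p = 0.19) and with all 20 libraries in the fit (adjusted p = 0.0945). From 6 to 10 h, HSPA8 in shZNF598 was lost with RLE (-0.19, adjusted p = 0.105) and HSP90AA1 in shControl with DESeq2 (0.54, adjusted p = 0.0514). The uncalled change of HSPE1 from 2 to 6 h in shControl turned to 0.039 with DESeq2 and 0.028 with RLE. Taking the trend of the group means called 7 chaperone slopes in shControl and 8 in shZNF598. The window of 4 to 10 h called 7 and 7, and that of 2 to 24 h called 2 and 2. Of all transcripts, the main fit called 55011 slopes in shControl and 52127 in shZNF598, and the trend called 61728 and 59552. The window of 4 to 10 h called 47309 and 43758 of them, and that of 2 to 24 h 17556 and 16357. Whether the chaperones differed from all transcripts in these counts was not tested.

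The slope call of HSPH1 in shZNF598 was lost with RLE (adjusted p = 0.0922) and DESeq2 (adjusted p = 0.058), and the slopes of HSPA1A and HSPA1B in shControl passed with RLE (adjusted p = 0.0457 and 0.0371). Slopes changed sign with the window. In shControl, over 2 to 6 h, HSPA1A was at -0.135, HSPA1B at -0.128, HSPA8 at 0.038 and HSPE1 at -0.000292. Over 4 to 10 h, DNAJB1 was at 0.096 and BAG3 at 0.166. Over 2 to 24 h, HSPA8 was at 0.014, HSPH1 at -0.015, HSP90AA1 at -0.044, HSPD1 at -0.018, HSPE1 at -0.051, DNAJB1 at 0.039 and BAG3 at 0.010. HSPA8 was at 0.016 with RLE and at 0.0099 with DESeq2. In shZNF598, over 2 to 6 h, HSPA1A was at -0.309, HSPA1B at -0.301, HSP90AA1 at -0.023 and HSPE1 at -0.043. Over 4 to 10 h, DNAJB1 was at 0.157 and BAG3 at 0.186. Over 2 to 24 h, HSPA8 was at 0.0135, DNAJB1 at 0.048, HSP90AA1 at -0.080, HSPB1 at -0.0055, HSPD1 at -0.031, HSPE1 at -0.069 and BAG3 at 0.042. The slope difference, never past the threshold, was 0.028 for HSPA1A, 0.024 for HSPA1B and 0.0088 for HSPB1 over 4 to 10 h, 0.00016 for HSPA1A and 0.00098 for HSPA1B over 2 to 24 h, and -0.015 for DNAJB1 and 0.0035 for HSPB1 over 2 to 6 h.

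Leaving out 1 library at a time gave 0 to 1 chaperones called at 4 h, 0 to 2 at 6 h, 0 to 3 at 10 h and 5 to 9 from 6 to 10 h in shZNF598. Calls over all transcripts at 4, 6 and 10 h also fell in some of these fits, where a group was left with 1 library. The ranges are therefore no trait of the chaperones alone, and whether the chaperones differed from all transcripts in them was not tested. Uncalled values changed sign for HSPD1 (-0.044 to 0.016) and BAG3 (-0.028 to 0.17) over 2 to 10 h, for HSP90AA1 at 10 h (-0.17 to 0.31), for HSPB1 and HSP90AA1 from 2 to 6 h in shZNF598 (-0.17 to 0.56 and -0.41 to 0.31), for HSPE1 from 2 to 6 h in shControl (-0.103 to 0.083), for HSP90AA1 from 6 to 10 h in shZNF598 (-0.066 to 0.42) and for the HSP90AA1 contrast of 6 h with 2 h (-0.59 to 0.12). Slopes did so for HSPA8 (-0.0048 to 0.012) and BAG3 (-0.091 to 0.0054) in shControl, and for HSPA1A (-0.017 to 0.12), HSPA1B (-0.012 to 0.12), HSP90AA1 (-0.015 to 0.057) and BAG3 (-0.063 to 0.034) in shZNF598. Slope differences did so for HSPA1A (-0.13 to 0.00087), DNAJB1 (-0.042 to 0.079), HSPB1 (-0.035 to 0.014) and BAG3 (-0.028 to 0.081).

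Of all transcripts, 53 differed in slope, against 217 with DESeq2, 224 with the trend of the group means, 26 over 2 to 6 h, 21 over 4 to 10 h and 0 over 2 to 24 h. At 2 h 933 were called, against 1947 with no filter, 593 with 20 libraries and 226 to 311 when a single 2 h library was left out. At 4 h 1542 were called, against 2361 with no filter. With 1 row per gene, 3908 genes in place of 17318 transcripts were called over 2 to 10 h. The fit with a replicate block called 17136 transcripts and 4 chaperones over 2 to 10 h, and the same 0 slope differences. It moved 1 chaperone past the threshold, HSPA8 from 2 to 6 h in shZNF598 (-0.21, adjusted p = 0.0476). The deviations of same-numbered libraries had a positive r at 2, 4 and 6 h (0.111, 0.325 and 0.261). At 0 h r was -0.0023, and at 10 h it was negative (-0.198).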

Other observations

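Slopes over 2 to 10 h of the other chaperone groups are given here as counts. Of 16 tested organelle chaperones, 11 had slopes above the bulk in shControl and 5 had slopes below it, with a median of 0.080 log2 units per hour, and in shZNF598 the counts were 9 and 5 (median 0.065). Of 18 J-domain co-chaperones, 2 lay above and 12 below in shControl (median -0.11), and 1 and 12 in shZNF598 (median -0.12). Of the 7 other cytosolic HSP70 and HSP110 genes, 1 lay above and 5 below in shControl, and 0 and 6 in shZNF598. Prefoldin had 4 of 6 subunits above in shControl and 3 in shZNF598. Of the 22 tested genes known to be induced by HSF1, 4 lay above and 11 below in shControl, and 3 and 13 in shZNF598. Over all 88 tested pathway genes the counts were 31 above and 39 below in shControl and 24 and 42 in shZNF598, beside 69.2% and 65.6% of all transcripts called (edgeR), 25570 above and 29441 below in shControl and 24522 and 27605 in shZNF598. Whether the groups differ from each other was not tested.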
